A study of Rattus norvegicus with 24 samples.

Results

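Repeated daily dosing with methylenedioxypyrovalerone (MDPV) was compared with saline in the left dorsal striatum of the rat, over every gene that the arrays measured. The 16 arrays used for this comparison, 8 labelled chronic and 8 labelled saline, were taken by their treatment label from the 24 arrays of the series; the other 8 arrays came from rats given a single dose. All animals were male Long Evans rats aged 80 to 90 days, and every rat had 1 intraperitoneal injection a day on 5 days. Saline rats had saline on all 5 days, repeated-dose rats had MDPV at 1 mg/kg on all 5 days, and single-dose rats had saline on 4 days and 1 mg/kg MDPV on the last. Brains were taken and frozen 24 h after the last injection, and the striatum was dissected by hand before total RNA was labelled with Cy3 and put on Agilent 1-colour arrays.

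MDPV is a synthetic cathinone that blocks the dopamine and noradrenaline transporters, which raises extracellular dopamine in the striatum. The dorsal striatum consists mostly of GABA-releasing projection neurons, which carry D1 dopamine receptors in the direct pathway and D2 receptors in the indirect pathway, with smaller numbers of interneurons and glia. Repeated psychostimulants are known for their effects there on activity-induced transcription factors, opioid peptides and the ERK kinase pathway.

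The series states 6 samples a group, while 8 arrays a group were given. In each group 4 arrays have a title of their own and the other 4 share 2 title letters, so arrays that share a letter were averaged to give 6 values a group. Of these 6, called averaged values below, 4 are single arrays and 2 are means of 2 arrays, and all were weighted alike. Arrays that share a letter were no more alike than other pairs (median correlation -0.36 against -0.15), so the values do not bear out the letters as repeats. The labels do not say which arrays came from separate rats, and p-values here measure the spread between these samples only. The 24 arrays lay on 3 slides of 8, and each slide held all 3 groups: slides 1 and 2 held 3 saline and 3 repeated-dose arrays each, and slide 3 held 2 of each. With equal numbers on every slide, a slide term cannot move the difference between these 2 groups of separate arrays, missing values aside. Where a difference is given below as the same with or without the slide as a block, the layout fixed that likeness, and it is no check. Between 50.7% and 71.3% of spots were well above background on an array, and no spot was saturated. Levels below are log2 signal relative to the array's 75th percentile, so a level of 0 is that of a bright probe, and a level of one probe is not set against that of another. Differences are the repeated-dose mean minus the saline mean on the same log2 scale. Each comes with the SE and the 95% interval of limma's moderated test over the 3 groups, with no adjustment for the number of genes. Genes of smallest p were chosen by that same test, so their intervals lie clear of 0 through the choice and are no support. The p-values of single genes are given only as adjusted over all genes. For repeated dosing against saline in the main fit, that value was 0.999 or higher for every gene named by symbol below.

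Striatal markers were well measured on all 16 arrays: Ppp1r1b, which encodes the dopamine-regulated phosphatase inhibitor DARPP-32, ran from 3.10 to 5.72. Markers of neighbouring tissues differed widely between arrays. Saline array 4 had the lowest mean over 22 pan-striatal markers, 0.37 against 1.11 to 2.16 on the other saline arrays and 1.06 to 1.86 on the repeated-dose arrays. It also had the highest mean over 11 hypothalamic markers, -1.15, with the next saline array at -3.02. The choroid plexus mean was highest on saline array 5 (-0.14) and repeated-dose array 8 (-0.12), and these same arrays had the lowest cortical means, -4.23 and -4.22. In bulk tissue, fewer cells of a type and less RNA per cell cannot be told apart.

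No gene differed between 5 doses of MDPV and saline past an adjusted p of 0.05 (limma with Benjamini-Hochberg adjustment over 20697 genes; smallest adjusted p = 0.705), so 0.0% of genes were called. Before adjustment, 592 genes (2.86%) had a p under 0.05, 313 of them higher (1.51%) and 279 lower (1.35%), where 1035 would if no gene differed. The median gene differed by 0.020, 56.4% of genes were higher, and the middle 95% of differences ran from -0.41 to 0.38. The median 95% interval reached 0.29 to either side, so for a typical gene a difference smaller than that was not detectable with 6 values a group, even without adjustment. Of all genes, 386 differed by more than 0.58, which is 1.5-fold, and 88 by more than 1, which is a factor of 2; 6 of the 88 were above background on all 16 arrays. Genes above background on all 16 arrays made up 68.7% of those tested and 45.6% of the 592, and 1.90% of them had such a p against 4.97% of the other genes. Leaving out saline array 7 raised the 592 to 1855, and leaving out repeated-dose array 3 lowered it to 355. With the slide as a block over 24 separate arrays the count was 492 genes, 273 higher and 219 lower, and again 0 after adjustment. The split between directions turned with the treatment of background: normexp correction of the raw signals gave 58 higher and 1520 lower, and keeping every dim probe, with 35833 genes tested, gave 226 higher and 824 lower. Normexp moved the median of all genes from 0.020 to -0.061, and dropping the filter moved it to -0.076.

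**Figure D1:**
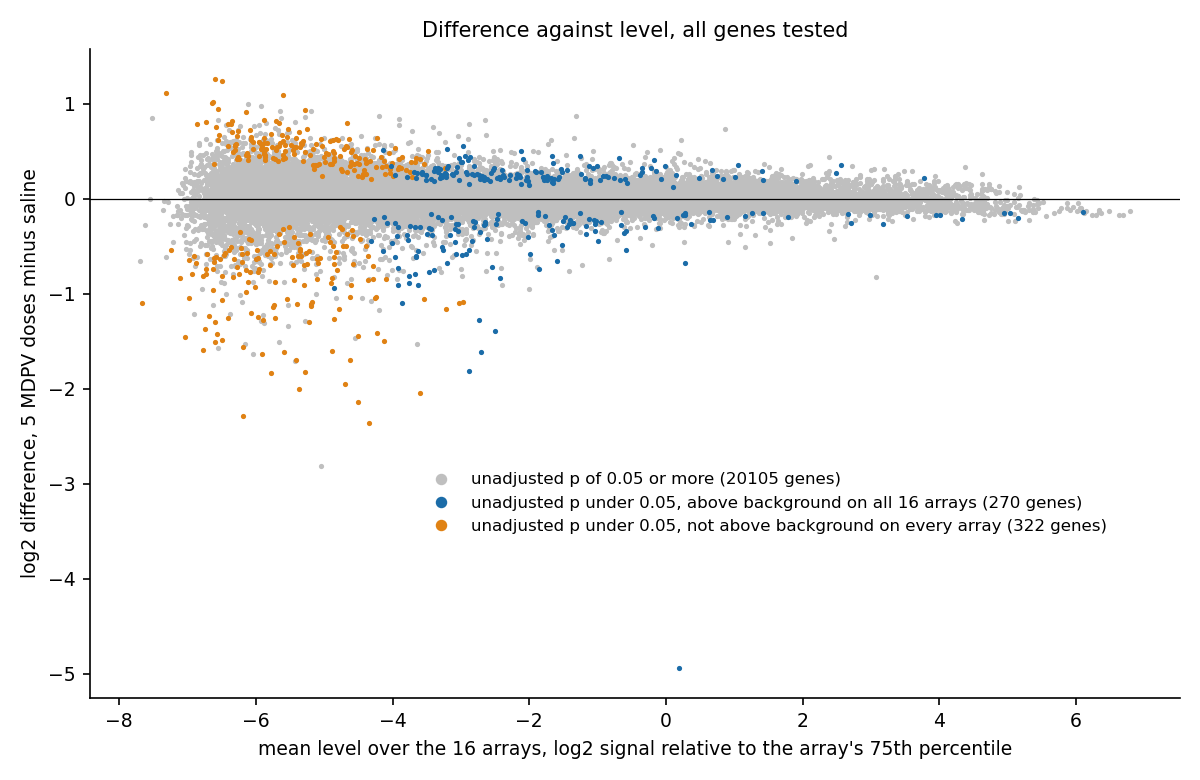
Each point is 1 of 20697 genes, with its mean level over the 16 arrays on the x axis (log2 signal relative to the array's 75th percentile) and its log2 difference, 5 doses of MDPV minus saline, on the y axis. Blue points are the 270 genes with an unadjusted p under 0.05 that were above background on all 16 arrays and orange points the 322 others with such a p; most differences beyond 1 in size lie among dim genes, and the lowest point is Ttr at -4.95.

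The smallest p of all belonged to a probe that the array annotation assigns to a predicted transcript variant of Vat1l, which encodes a vesicle amine transport 1-like protein; it carries no symbol of its own in the files and was chosen here after its values were seen. Its 8 saline arrays ran from -2.74 to -1.78 (median -2.17) and its 8 repeated-dose arrays from -3.27 to -2.19 (median -2.86). It was above background on every array, 5 of 8 repeated-dose arrays lay below all saline arrays, and the 6 averaged values of the groups did not overlap. The difference was -0.72 (SE 0.13), and the adjusted p from limma was 0.705. The single-dose group ran from -2.95 to -1.91, and the repeated-dose mean was -0.51 relative to it (SE 0.13, adjusted p = 0.961 in limma). Within slides 1, 2 and 3 the difference was -0.81, -0.66 and -0.27, and it stayed below 0 under all 31 alternatives, with adjusted p from 0.0825 upward.

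Among genes named by symbol with the smallest p, those above background on all or nearly all of the 16 arrays differed by modest amounts. Stx7, a syntaxin of late endosomes whose probe lies at chr1:21722361-21722420 of rn4 per the file headers, ran from 0.26 to 0.82 (median 0.54) on the saline arrays and from 0.50 to 1.11 (median 0.81) on the repeated-dose arrays, with a difference of 0.30 (SE 0.094, interval 0.11 to 0.50). The groups overlapped, and a second Stx7 probe gave 0.065. Golga5, a Golgi golgin with its probe at chr6:126761693-126761752, ran from -2.86 to -2.35 (median -2.53) on the saline arrays and from -2.60 to -2.23 (median -2.35) on the repeated-dose arrays, and differed by 0.22 (SE 0.068, interval 0.073 to 0.36). Rab3d, a small GTPase of regulated secretion, ran from -4.01 to -2.49 (median -3.22) on the saline arrays and from -3.09 to -2.43 (median -2.77) on the repeated-dose arrays, and differed by 0.56 (SE 0.18, interval 0.18 to 0.93). In Golga5 and Rab3d the lowest saline arrays lay below every repeated-dose array, and the ranges overlapped above that. Apaf1, the core of the apoptosome, was above background on 7 saline and 8 repeated-dose arrays, ran from -4.38 to -3.79 (median -4.06) on the saline arrays and from -4.41 to -3.39 (median -3.62) on the repeated-dose arrays and differed by 0.42 (SE 0.11, interval 0.18 to 0.66); its other probe gave 0.024. Nampt, the rate-limiting enzyme of NAD salvage, was above background on 7 saline and 8 repeated-dose arrays, ran from -4.33 to -3.61 (median -3.85) on the saline arrays and from -3.95 to -3.20 (median -3.53) on the repeated-dose arrays and differed by 0.39 (SE 0.12, interval 0.14 to 0.64). Within slides 1, 2 and 3 the Apaf1 differences were 0.33, 0.45 and 0.13 and those of Nampt 0.67, 0.18 and 0.10, while on slide 3 alone Stx7 turned to -0.092. Over 8 separate arrays a group, with or without the slide as a block, the differences were 0.27 for Stx7, 0.20 for Golga5, 0.48 for Rab3d, 0.32 for Apaf1 and 0.35 for Nampt.

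Genes with lower levels after 5 doses included Adi1, an enzyme of methionine salvage, read by a probe at chr6:46559492-46559551 of rn4. Adi1 ran from -1.49 to -0.98 (median -1.34) on the saline arrays and from -1.96 to -1.42 (median -1.57) on the repeated-dose arrays, a difference of -0.30 (SE 0.10, interval -0.50 to -0.091), and its 6 averaged values did not overlap between the groups. Rasal3, a Ras GTPase-activating protein best known in blood cells, ran from -4.08 to -3.31 (median -3.48) on the saline arrays and from -4.36 to -3.72 (median -3.92) on the repeated-dose arrays and differed by -0.43 (SE 0.14, interval -0.72 to -0.15). The histone H2B gene H2bc12 ran from -1.39 to -1.11 (median -1.32) on the saline arrays and from -1.83 to -1.20 (median -1.57) on the repeated-dose arrays and differed by -0.27 (SE 0.089, interval -0.45 to -0.081), and Spata24 ran from -2.81 to -2.16 (median -2.58) on the saline arrays and from -3.02 to -2.32 (median -2.83) on the repeated-dose arrays and differed by -0.27 (SE 0.092, interval -0.47 to -0.079). For these 4 genes the lower part of the saline range and the upper part of the repeated-dose range overlapped. Slc9a7, a sodium-proton exchanger of organelle membranes, ran from -4.87 to -3.72 (median -4.67) on the saline arrays and from -6.82 to -4.59 (median -5.01) on the repeated-dose arrays and differed by -0.69 (SE 0.21, interval -1.13 to -0.25), with repeated-dose arrays 5 and 7 the lowest. Within slide 3 the difference had the opposite sign for H2bc12 (0.077) and Spata24 (0.12). Over 8 separate arrays a group, with or without the slide as a block, Adi1 was -0.30, Rasal3 -0.39, H2bc12 -0.23 and Spata24 -0.25.

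**Figure D2:**
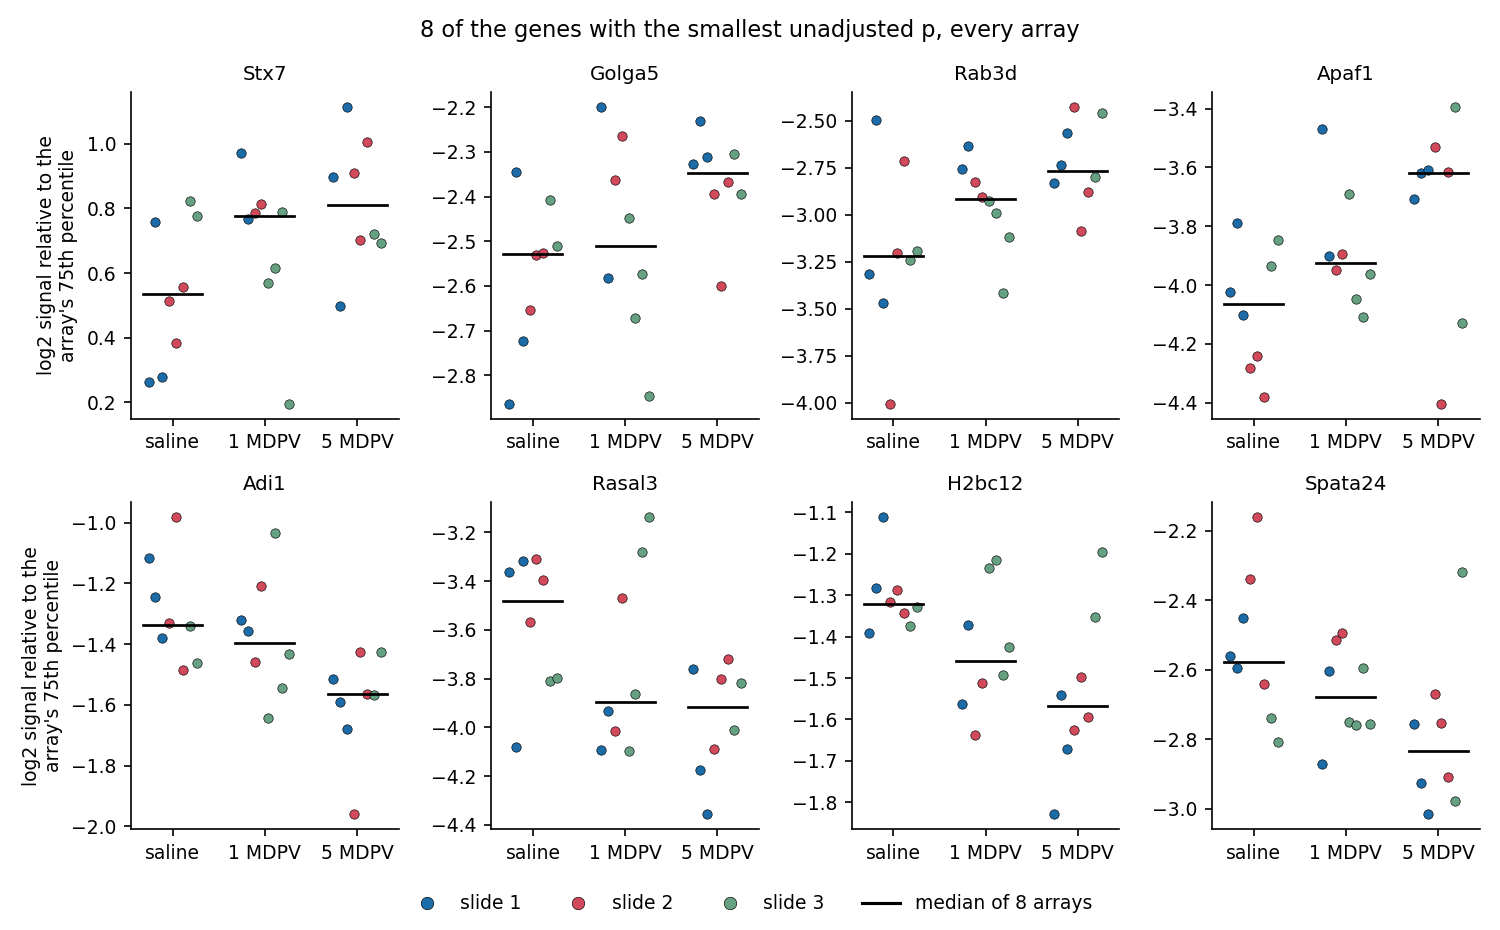
Levels (log2 signal relative to the array's 75th percentile) of 8 genes with small unadjusted p on every array, for saline, 1 dose and 5 doses of MDPV; colours mark the 3 slides and the line is the median of 8 arrays. In every panel the saline and 5-dose arrays overlap, and the y axis differs between panels.

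The remaining genes of smallest p were dim, with some arrays not well above background. The filter on dim probes kept a probe that was well above background on at least 0.5 of the arrays of any group. A gene that meets it through 1 group alone tends to be high in that group. Henmt1, a methyltransferase of small RNAs, was above background on 1 saline and 5 repeated-dose arrays and ran from -7.46 to -6.26 (median -6.71) on the saline arrays and from -6.34 to -5.27 (median -6.00) on the repeated-dose arrays; the difference was 0.82 (SE 0.19, interval 0.41 to 1.23). Of these 2 groups, Henmt1 met the filter only in the repeated-dose group, so the filter favoured its difference. Piwil2, a PIWI protein that binds such RNAs, was above background on 6 saline and 8 repeated-dose arrays and differed by 0.51 (SE 0.15, interval 0.20 to 0.81). Cth, which makes cysteine from cystathionine, was above background on 4 saline and 7 repeated-dose arrays and differed by 0.82 (SE 0.23, interval 0.33 to 1.31). P2rx4, an ATP-gated cation channel, was above background on 5 saline and 8 repeated-dose arrays and ran from -6.29 to -4.13 (median -4.89) on the saline arrays and from -4.59 to -4.04 (median -4.24) on the repeated-dose arrays, a difference of 0.80 (SE 0.24, interval 0.29 to 1.31). The saline arrays of P2rx4 and Cth reached lower than any repeated-dose array, and the ranges otherwise overlapped. Other dim genes higher after 5 doses were the helicase gene Ddx31 at 0.56 (SE 0.16, interval 0.22 to 0.91), the actin regulator gene Wipf2 at 0.47 (SE 0.14, interval 0.17 to 0.78), Cd7 at 0.44 (SE 0.13, interval 0.16 to 0.72), Zswim9 at 0.31 (SE 0.10, interval 0.10 to 0.52), and Gfy at 1.26 (SE 0.40, interval 0.41 to 2.11). Fpgt, an enzyme of fucose metabolism, differed by 0.45 (SE 0.15, interval 0.14 to 0.76), and its other probe gave -0.24. Under normexp background correction Henmt1, P2rx4, Cd7, Ddx31, Zswim9 and Fpgt took the opposite sign, and on slide 3 alone so did Piwil2, Cth, Ddx31, Wipf2, Cd7, Zswim9 and Gfy.

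Other genes of smallest p were lower after 5 doses. Cfap157, a protein of motile cilia, was above background on 3 saline and 2 repeated-dose arrays and differed by -1.30 (SE 0.36, interval -2.06 to -0.54). Ccdc190 ran from -7.58 to -2.76 (median -4.45) on the saline arrays and from -7.28 to -3.72 (median -6.46) on the repeated-dose arrays, and differed by -1.70 (SE 0.47, interval -2.69 to -0.71). Its averaged values did not overlap, but its arrays did. Averaging by letter joined saline arrays 2 and 5, at -7.58 and -2.76, and repeated-dose arrays 6 and 8, at -6.96 and -3.72, which hid that spread. Dynlrb2, a dynein light chain of cilia that was above background on all 16 arrays, ran from -3.92 to -0.40 (median -2.27) on the saline arrays and from -4.55 to -1.27 (median -3.41) on the repeated-dose arrays and differed by -1.27 (SE 0.40, interval -2.12 to -0.42). Their lower levels go with the lower ependymal means described below, and the part of those cells in them was not tested. On slide 3 alone Cfap157 and Dynlrb2 were higher after 5 doses (0.056 and 0.84). Exo1, a DNA repair exonuclease, differed by -0.98 (SE 0.26, interval -1.53 to -0.43) and Gtse1, a cell cycle protein, by -0.88 (SE 0.28, interval -1.46 to -0.30). Ism1, a secreted isthmin, differed by -0.54 (SE 0.14, interval -0.83 to -0.25), the transcription factor gene Myt1 by -1.23 (SE 0.35, interval -1.96 to -0.50), and Rhd by -0.91 (SE 0.31, interval -1.55 to -0.26). Ptger3, the EP3 receptor of prostaglandin E2, was above background on 3 saline and 2 repeated-dose arrays and ran from -6.92 to -4.79 (median -5.88) on the saline arrays and from -7.23 to -5.61 (median -6.80) on the repeated-dose arrays. The Ptger3 difference was -0.80 (SE 0.20, interval -1.23 to -0.37). Cfap157 and Ptger3 met the filter on dim probes only through the single-dose group. Their differences from saline therefore lie between arrays that were mostly not well above background. Gpr35 was not well above background on any repeated-dose array and was above it on 1 saline array, so its difference of -1.10 (SE 0.37, interval -1.88 to -0.32) lies between values at background and no fold is given.

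The largest differences, whatever their p, were those of choroid plexus and cilia genes on the low side and of dim genes on the high side. Ttr, the transthyretin made by choroid plexus, ran from -4.37 to 6.28 (median 4.23) on the saline arrays and from -5.62 to 6.22 (median -4.23) on the repeated-dose arrays, a difference of -4.95 (SE 2.13, interval -9.42 to -0.47). Both groups held arrays at each extreme, and the repeated-dose arrays were mostly at the low one. Sostdc1 differed by -2.82 (SE 1.37, interval -5.71 to 0.071), Folr1, a folate receptor, by -2.36 (SE 0.86, interval -4.16 to -0.55), Cnmd by -2.29 (SE 0.91, interval -4.20 to -0.38) and Tmem212 by -2.14 (SE 0.99, interval -4.22 to -0.052). On the high side Wnt16, a Wnt ligand, differed by 1.24 (SE 0.46, interval 0.26 to 2.21) and was above background on 1 saline and 5 repeated-dose arrays. Oaz3 differed by 0.93 (SE 0.54, interval -0.21 to 2.07), with repeated-dose array 7 at -2.0 and the next averaged value of its group at -5.45, and the peptidase gene Dpp4 by 0.93 (SE 0.55, interval -0.23 to 2.08). P4ha3, a collagen prolyl hydroxylase, was not well above background on any saline array and was above it on 5 repeated-dose arrays, and its difference of 1.02 (SE 0.43, interval 0.11 to 1.92) likewise gives no fold and turned sign under normexp. Like Henmt1, both Wnt16 and P4ha3 met the filter in the repeated-dose group and not in the saline group, which favoured their differences.

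The 8 arrays of the 2 groups were fully apart for none of the 20697 genes (0.0%), and their 6 averaged values for 10 genes (0.0483%), 6 above (0.0290%) and 4 below (0.0193%). Beside Ccdc190, Cd7, Adi1 and the Vat1l probe, the genes with a symbol among them, chosen after their values were seen, were Safb, a nuclear matrix protein, at 0.27 (SE 0.088), Gramd2a at 0.25 (SE 0.089), the transcription repressor gene Dr1 at 0.23 (SE 0.11) and Mpzl1 at 0.36 (SE 0.21). None passed the adjusted threshold. Random orderings of 6 against 6 values would on average set apart more genes than these 10, so standing apart is no sign of a difference. Averaging arrays that share a letter can hide extreme arrays, as in Ccdc190, so averaged values that stand apart do not show that the arrays do.

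The widest shifts of whole gene lists were those of tissues beside the striatum. All 9 choroid plexus markers that passed the filter on dim probes, of 16 listed, were lower, where 43.6% of all genes were, with a median of -1.70 against 0.020 for all genes. The choroid plexus mean ran from -5.84 to -0.14 on the saline arrays and from -6.36 to -0.12 on the repeated-dose arrays. Of 8 repeated-dose arrays, 6 lay at -4.98 or below, and so did 2 of 8 saline arrays. Calml4, a calmodulin-like gene of this list, differed by -1.70 (SE 0.66, interval -3.10 to -0.31). Within slides 1, 2 and 3 the list median was -2.05, -3.12 and 1.93, so the direction turned on slide 3, which holds repeated-dose array 8; over 8 separate arrays a group, with or without the slide as a block, it was -1.44. The median was -1.57 without saline arrays 2 and 5, -1.99 without repeated-dose arrays 6 and 8, -1.31 without saline array 4, -1.05 under normexp and -0.66 with array weights. A gene that passes through 1 group alone tends to differ, so these counts describe the members measured. All 10 measured ependymal and cilia markers, of 20 listed, were lower too, with a median of -0.73, and 0.44 on slide 3. Cfap126 of that list differed by -1.04 (SE 0.36, interval -1.81 to -0.28). The choroid plexus and the ependyma line the ventricle next to the striatum, and their part in the other gene differences was not tested.

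Thalamic, septal and pallidal markers were lower in 12 of 13, with a median of -0.40, and hypothalamic markers in 10 of 11, with a median of -0.72. Without saline array 4 these medians were -0.26 and -0.13. Gal, the neuropeptide galanin, reached 1.38 on saline array 4 and lay at or below -0.89 on the other saline arrays; its difference was -1.40 (SE 0.60, interval -2.65 to -0.14). Prkcd, a kinase abundant in thalamus, differed by -0.55 (SE 0.24, interval -1.05 to -0.037) and the transcription factor gene Zic1 by -0.84 (SE 0.37, interval -1.62 to -0.052), with -0.41 from another Zic1 probe. Cortical excitatory markers were higher in all 15 measured, with a median of 0.38, 0.12 without saline array 4, and 0.31, 1.70 and -1.24 within slides 1, 2 and 3. It was 0.15 without saline arrays 2 and 5 and 0.52 without repeated-dose arrays 6 and 8. Lamp5, a marker of upper cortical layers, ran from -2.17 to -0.23 (median -1.06) on the saline arrays and from -0.94 to -0.40 (median -0.61) on the repeated-dose arrays and differed by 0.38 (SE 0.22, interval -0.094 to 0.84). No cortical member had a p under 0.05, where 2.86% of all genes did, and on slide 3, where repeated-dose array 8 lies, the list turned.

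**Figure D3:**
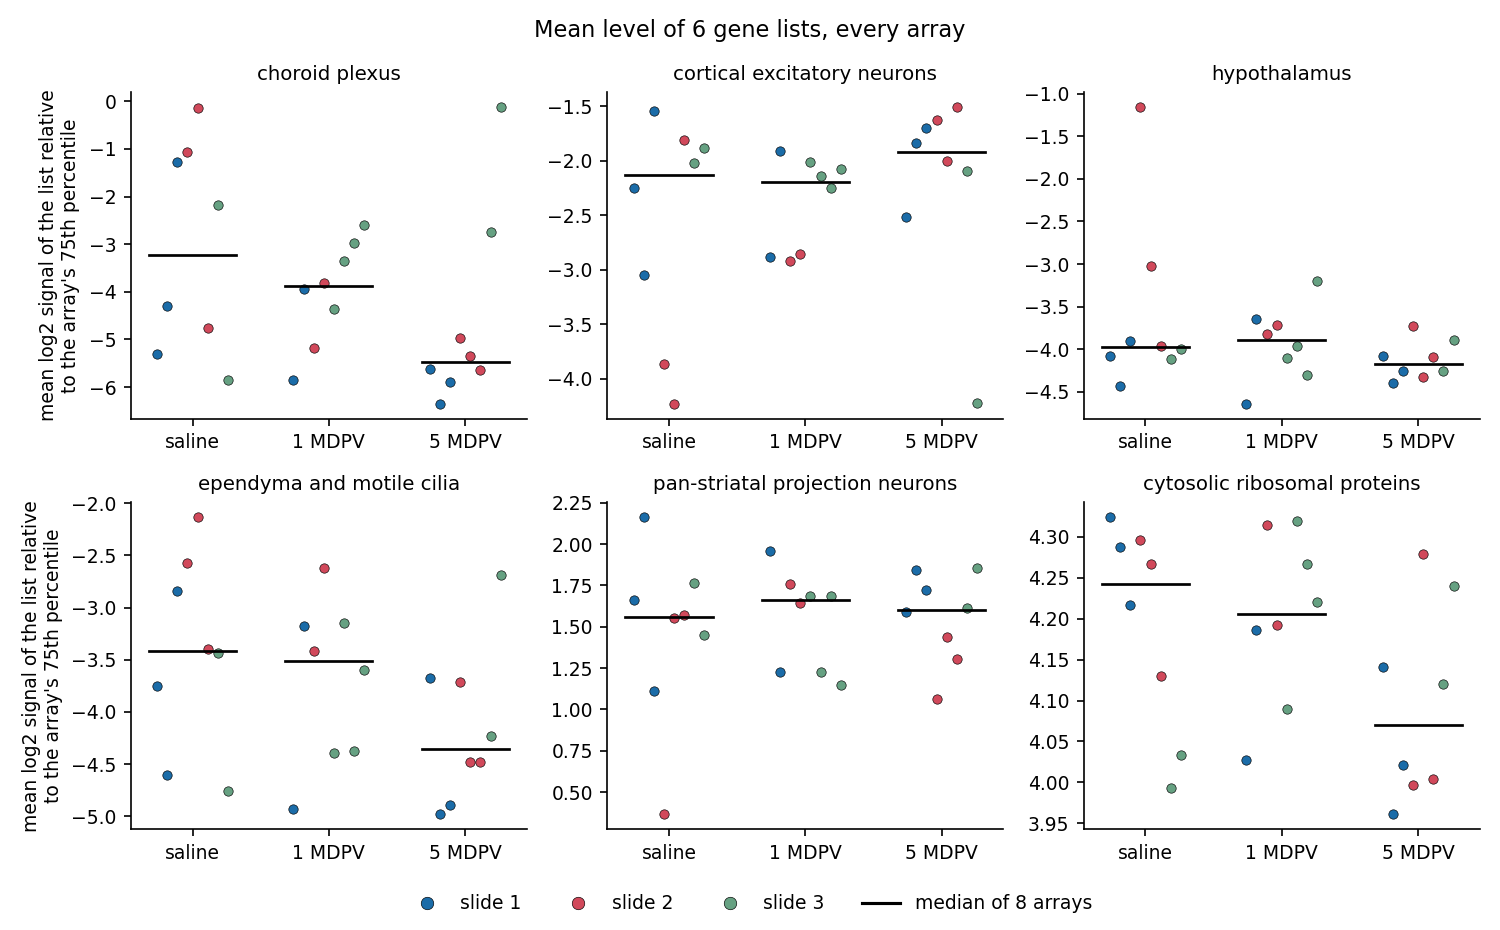
Mean level of the measured members of 6 gene lists (log2 signal relative to the array's 75th percentile) on every array, for saline, 1 dose and 5 doses of MDPV; colours mark the slides and the line is the median of 8 arrays. In every panel the saline and 5-dose arrays overlap; saline array 4 is the highest hypothalamic and lowest pan-striatal point, and 1 array of the 5-dose group is the highest choroid plexus point of that group.

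Genes of the striatal projection neurons themselves were slightly higher. All 22 pan-striatal markers were higher, where 56.4% of all genes were, with a median of 0.16, and none had a p under 0.05, where 2.86% of all genes did. Without saline array 4 the median was -0.031. Ppp1r1b ran from 3.10 to 5.34 (median 4.58) on the saline arrays and from 4.24 to 5.72 (median 4.64) on the repeated-dose arrays and differed by 0.26 (SE 0.25, interval -0.27 to 0.79); without saline array 4 its sign turned. The D1 receptor gene Drd1 ran from 1.89 to 3.39 (median 2.85) on the saline arrays and from 2.21 to 3.29 (median 2.88) on the repeated-dose arrays and differed by 0.086 (SE 0.20, interval -0.33 to 0.50), and the D2 receptor gene Drd2 ran from 1.90 to 3.88 (median 3.14) on the saline arrays and from 2.44 to 3.47 (median 3.16) on the repeated-dose arrays and differed by 0.11 (SE 0.23, interval -0.37 to 0.59). For both receptors the groups had nearly the same median, and over 8 separate arrays a group, with or without the slide as a block, Drd1 was -0.0085; its other probe gave 0.39. Of 26 measured genes of dopamine receptor and cAMP signalling 24 were higher, with a median of 0.12 that became -0.023 without saline array 4. Direct-pathway markers were higher in 9 of 11 and indirect-pathway markers in 9 of 10, with medians of 0.091 and 0.13, which turned to -0.027 and -0.048 without saline array 4. Th, the rate-limiting enzyme of dopamine synthesis, differed by -0.13 (SE 0.23, interval -0.61 to 0.34), and the dopamine transporter gene Slc6a3 was not tested because its probes were not well above background often enough.

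The opioid and other peptide genes of the projection neurons did not pass the test. Pdyn, the prodynorphin gene of the direct pathway, ran from 1.24 to 2.43 (median 1.75) on the saline arrays and from 1.18 to 2.34 (median 1.61) on the repeated-dose arrays and differed by -0.070 (SE 0.20, interval -0.50 to 0.36). Penk, proenkephalin of the indirect pathway, ran from 2.88 to 4.59 (median 3.81) on the saline arrays and from 3.76 to 4.53 (median 3.99) on the repeated-dose arrays and differed by 0.24 (SE 0.19, interval -0.16 to 0.64), with 0.39 from another probe. Tac1, which encodes substance P, differed by 0.087 (SE 0.20, interval -0.34 to 0.52), and Cartpt by -0.35 (SE 0.66, interval -1.75 to 1.05), with 1 repeated-dose array down to -4.66. Over all 16 peptide and opioid receptor genes 7 were higher and the median was -0.033, -0.081 without saline array 4. Oprm1, the mu opioid receptor, was above background on 1 saline and 1 repeated-dose array and differed by -0.64 (SE 0.37, interval -1.42 to 0.14), with -0.25 from another probe. Oprm1 met the filter on dim probes only through the single-dose group, so its difference lies between arrays mostly not well above background.

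Activity-induced genes, whose transcripts rise within minutes of strong stimulation, were measured here a day after the last dose. Of 23 measured, 17 were higher (73.9%, against 56.4% of all genes) with a median of 0.14, and none had a p under 0.05, where 2.86% of all genes did. Fos, an AP-1 subunit, ran from -5.03 to -4.05 (median -4.62) on the saline arrays and from -6.27 to -3.75 (median -4.77) on the repeated-dose arrays and differed by -0.12 (SE 0.28, interval -0.72 to 0.48). Fosb, whose truncated product accumulates with repeated stimulants, ran from -5.25 to -3.65 (median -4.14) on the saline arrays and from -4.55 to -3.64 (median -3.98) on the repeated-dose arrays and differed by 0.25 (SE 0.23, interval -0.23 to 0.73); the array values are of the gene and were not split by isoform. Junb differed by 0.29 (SE 0.25, interval -0.24 to 0.82), Egr1 by 0.14 (SE 0.25, interval -0.39 to 0.68), Egr3 by 0.57 (SE 0.30, interval -0.058 to 1.21), the synaptic regulator gene Arc by 0.21 (SE 0.30, interval -0.42 to 0.85) and the nuclear receptor gene Nr4a1 by 0.18 (SE 0.25, interval -0.33 to 0.70). Fos was above background on 7 saline and 7 repeated-dose arrays, Egr3 on 4 saline and 7 repeated-dose arrays, with -0.094 from another Egr3 probe, and Npas4 was not tested. Saline array 4 was the lowest saline array for Fosb and Nr4a1, and without it the median of the list was 0.017, and under normexp it was -0.0018.

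Feedback regulators of the ERK pathway had a median of 0.18, with 15 of 19 higher and 2 at a p under 0.05, where 1.51% of all genes were higher with such a p. Dusp1, a phosphatase that inactivates MAP kinases, ran from -5.61 to -4.03 (median -4.98) on the saline arrays and from -5.43 to -3.36 (median -4.39) on the repeated-dose arrays and differed by 0.63 (SE 0.28, interval 0.033 to 1.22). Spred1, which blocks Raf activation, ran from -2.25 to -1.43 (median -1.79) on the saline arrays and from -1.87 to -1.22 (median -1.61) on the repeated-dose arrays and differed by 0.24 (SE 0.11, interval 0.0014 to 0.48); its other probes gave -0.036 and 0.048. Dusp1 was above background on 6 saline and 7 repeated-dose arrays, and its ranges overlapped. Without saline array 4 the list median was 0.029, and on slide 3 it was -0.0087. Under normexp correction the Dusp1 difference turned to -0.13.

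Synaptic and channel genes leaned higher by small amounts. Presynaptic release genes were higher in 25 of 29 with a median of 0.11, postsynaptic density genes in 25 of 30 with a median of 0.13, sodium and calcium channel genes in 23 of 27 with a median of 0.11, and potassium channel genes in 26 of 39 with a median of 0.10. Without saline array 4 these 4 medians were 0.059, 0.030, 0.035 and 0.053. Cortical markers were higher too, as given above, and their part in these values was not tested. Syt1, the calcium sensor of vesicle release, ran from 1.96 to 2.69 (median 2.36) on the saline arrays and from 2.0 to 2.96 (median 2.67) on the repeated-dose arrays and differed by 0.27 (SE 0.12, interval 0.018 to 0.52); its other probes gave 0.10 and 0.051. Cacna1a, the P/Q-type calcium channel, ran from -4.93 to -3.82 (median -4.49) on the saline arrays and from -4.45 to -3.70 (median -4.05) on the repeated-dose arrays and differed by 0.34 (SE 0.13, interval 0.064 to 0.61), with 0.081 from another probe. Dlg3, the scaffold SAP102, differed by 0.22 (SE 0.095, interval 0.024 to 0.42). On slide 3 all 3 genes and the medians of all 4 lists had the opposite sign. Glutamate receptor genes were higher in 16 of 22 with a median of 0.057, and the NMDA subunit gene Grin2d stood lower at -0.26 (SE 0.12, interval -0.51 to -0.021), with -0.12 and -0.071 from its other probes. Without saline array 4 the glutamate receptor median was 0.030. GABA genes had a median of -0.0026, and cholinergic transmission genes one of -0.0059. Slc5a7, the choline transporter of cholinergic interneurons, differed by -0.30 (SE 0.16, interval -0.64 to 0.042), and its other probe gave 0.11. Cholinergic interneuron markers were higher in 2 of 8 with a median of -0.19, which was -0.042 without saline array 4. Within slides 1, 2 and 3 that median was 0.16, -0.64 and -0.011. GABA interneuron markers were higher in 6 of 16 with a median of -0.069, and -0.056 without saline array 4.

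Cytosolic ribosomal protein genes, which encode the protein part of the ribosome, were lower in 75 of 78 measured, where 43.6% of all genes were lower, with a median of -0.10 and a range of -0.21 to 0.051. Of them 3 (3.85%) were lower with a p under 0.05, where 1.35% of all genes were. The mean over the list ran from 3.99 to 4.32 on the saline arrays and from 3.96 to 4.28 on the repeated-dose arrays. The lowest saline values, from arrays 7 and 8 on slide 3, lay among the repeated-dose ones. Rpl41 ran from 5.98 to 6.30 (median 6.17) on the saline arrays and from 5.91 to 6.16 (median 6.03) on the repeated-dose arrays and differed by -0.14 (SE 0.063, interval -0.28 to -0.013); Rpl19 ran from 5.00 to 5.45 (median 5.27) on the saline arrays and from 4.73 to 5.36 (median 5.04) on the repeated-dose arrays and differed by -0.21 (SE 0.095, interval -0.41 to -0.0074), with -0.087 from another probe. Under normexp, quantile normalization and in the authors' value table the list median was -0.084, -0.057 and -0.040. Within slides 1, 2 and 3 it was -0.26, -0.15 and 0.19, and over 8 separate arrays a group, with or without the slide as a block, it was -0.10. Against the single-dose group it was -0.12, while the single-dose group differed from saline by a median of 0.026. Under quantile normalization and in the authors' value table Rpl41 turned to 0.048 and 0.052. Mitochondrial respiratory chain genes were higher in 23 of 73 with a median of -0.029, and Ndufb8 of complex I differed by -0.16 (SE 0.077, interval -0.32 to 0.0048).

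As these genes stood on the same side of saline, their promoters are shown. RefSeq promoter windows (assembly GRCr8, 300 bases each) were matched by symbol for 62 of the 78 genes. Of 13 short motifs searched on both strands with the results known, ACTTCCG, the letters of an ETS-type site, is given here: it lay in 18 of 62 windows (29.0%), in 11.9% of the 11509 matched windows of genes tested, and in 6.70% of all 27457 windows. Respiratory chain genes held it in 16 of 64 windows. The 120 bases before the start site of Rpl41 (chr7:1563498-1563617, minus strand), Rpl19 (chr10:83518944-83519063, plus strand) and Rpl35 (chr3:43165922-43166041, minus strand) follow 5′ to 3′, with matches to the motif or its reverse complement in capitals.
Rpl41: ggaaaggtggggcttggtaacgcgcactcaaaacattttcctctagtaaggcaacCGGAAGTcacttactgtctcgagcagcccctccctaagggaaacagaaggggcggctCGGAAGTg
Rpl19: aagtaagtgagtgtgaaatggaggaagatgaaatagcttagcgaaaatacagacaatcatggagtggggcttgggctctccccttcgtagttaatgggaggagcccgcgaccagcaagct
Rpl35: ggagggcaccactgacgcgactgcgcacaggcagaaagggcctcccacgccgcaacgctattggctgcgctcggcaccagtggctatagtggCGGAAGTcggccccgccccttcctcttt
Rpl41 and Rpl35, at differences of -0.14 and -0.14, hold the letters in these stretches, and Rpl19, the lowest of the named ribosomal genes at -0.21, does not. Other ribosomal genes with the letters in the same stretch ran from -0.13 (Rps12) to -0.045 (Rps7), around the list median of -0.098. Rpl35, Rps12 and Rps7 were chosen after their values were seen, and a link of the motif to the differences was not tested. A match describes letters in a window and says nothing of binding.

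Among clock and stress hormone genes Clock, a core circadian transcription factor, had the smallest p: it was above background on 1 saline and 5 repeated-dose arrays, ran from -7.32 to -6.10 (median -6.43) on the saline arrays and from -6.62 to -4.93 (median -5.98) on the repeated-dose arrays and differed by 0.66 (SE 0.22, interval 0.18 to 1.13). Repeated-dose array 1 was the highest Clock value of its group, and under normexp the sign turned. Clock also met the filter on dim probes in the repeated-dose group and not in the saline group, which favoured its difference. Per1 differed by -0.025 (SE 0.15, interval -0.35 to 0.30), with 0.23 from another probe, and Per2 by 0.11 (SE 0.11, interval -0.13 to 0.35). Circadian genes as a list were higher in 12 of 19 with a median of 0.060, which was 0.0079 without saline array 4 and 0.0070 without repeated-dose array 7. Fkbp5, a glucocorticoid-induced co-chaperone, ran from -0.80 to 0.57 (median -0.055) on the saline arrays and from -0.15 to 0.30 (median 0.14) on the repeated-dose arrays and differed by 0.26 (SE 0.14, interval -0.037 to 0.55). The repeated-dose arrays of Fkbp5 spanned a narrower range inside that of saline. Corticosteroid targets had a median of 0.020 with 9 of 17 higher, and -0.024 without saline array 4.

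Vascular and matrix genes stood on both sides of saline. Edn1, the vasoconstrictor endothelin 1, ran from -6.41 to -5.21 (median -5.61) on the saline arrays and from -5.81 to -4.42 (median -5.26) on the repeated-dose arrays and differed by 0.47 (SE 0.16, interval 0.13 to 0.81); it was above background on 4 saline and 7 repeated-dose arrays and took a value of -0.0070 under normexp. The single-dose group stood 0.56 from the same saline arrays, and the repeated-dose mean differed from it by -0.084 (SE 0.16). Mmp2, a gelatinase, ran from -3.73 to -2.31 (median -3.34) on the saline arrays and from -4.13 to -2.28 (median -3.77) on the repeated-dose arrays and differed by -0.38 (SE 0.14, interval -0.68 to -0.077), while another Mmp2 probe gave 0.26. Its inhibitor gene Timp1 differed by 0.12 (SE 0.25, interval -0.40 to 0.64) and Mmp9 was not tested. Of 39 matrix genes 19 were higher, with a median of -0.026 (0.019 without saline array 4), and of 16 endothelin and vasoactive genes 8, with a median of -0.0075.

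Glial and trophic lists leaned lower. Microglial markers were higher in 2 of 17 with a median of -0.078, astrocyte markers in 3 of 16 with -0.094, and oligodendrocyte markers in 2 of 14 with -0.10; the astrocyte and oligodendrocyte medians were -0.042 and 0.017 without saline array 4. Tmem119, a microglial membrane protein, ran from -2.63 to -1.48 (median -1.78) on the saline arrays and from -2.60 to -1.98 (median -2.28) on the repeated-dose arrays and differed by -0.37 (SE 0.19, interval -0.78 to 0.041). The purinergic receptor gene P2ry13 differed by -0.18 (SE 0.10, interval -0.39 to 0.024) with -0.45 from another probe, and the astrocytic S100b by -0.11 (SE 0.068, interval -0.25 to 0.034), with 0.032 from another probe. Of 15 neurotrophic factors and receptors 1 was higher, with a median of -0.075, -0.034 without saline array 4 and 0.12 on slide 3; that 1 was Bdnf, which ran from -7.71 to -4.07 (median -4.72) on the saline arrays and from -6.88 to -3.71 (median -4.28) on the repeated-dose arrays and differed by 0.44 (SE 0.43, interval -0.46 to 1.34). Igf2, a growth factor of meninges and choroid plexus, differed by -0.49 (SE 0.32, interval -1.16 to 0.19), and its other probe gave 0.20. Cxcl10, an interferon-induced chemokine, was above background on 1 saline and 2 repeated-dose arrays and differed by -0.84 (SE 0.39, interval -1.66 to -0.014), within a cytokine list at 11 of 21 higher and a median of 0.012, -0.0054 without saline array 4. Cxcl10 met the filter on dim probes only through the single-dose group, so its difference lies between arrays mostly not well above background. Txnrd1, a thioredoxin reductase, differed by 0.26 (SE 0.11, interval 0.032 to 0.48), in an antioxidant list with a median of 0.0026. Blood markers had 1 of 11 higher and a median of -0.15, with the haemoglobin chaperone gene Ahsp at -0.45 (SE 0.21, interval -0.89 to -0.0071). Lists with medians close to 0 included the proteasome (0.027), chaperones (0.020), the unfolded protein response (0.0014), cholesterol synthesis (0.039) and chromatin enzymes (0.028).

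**Figure D4:**
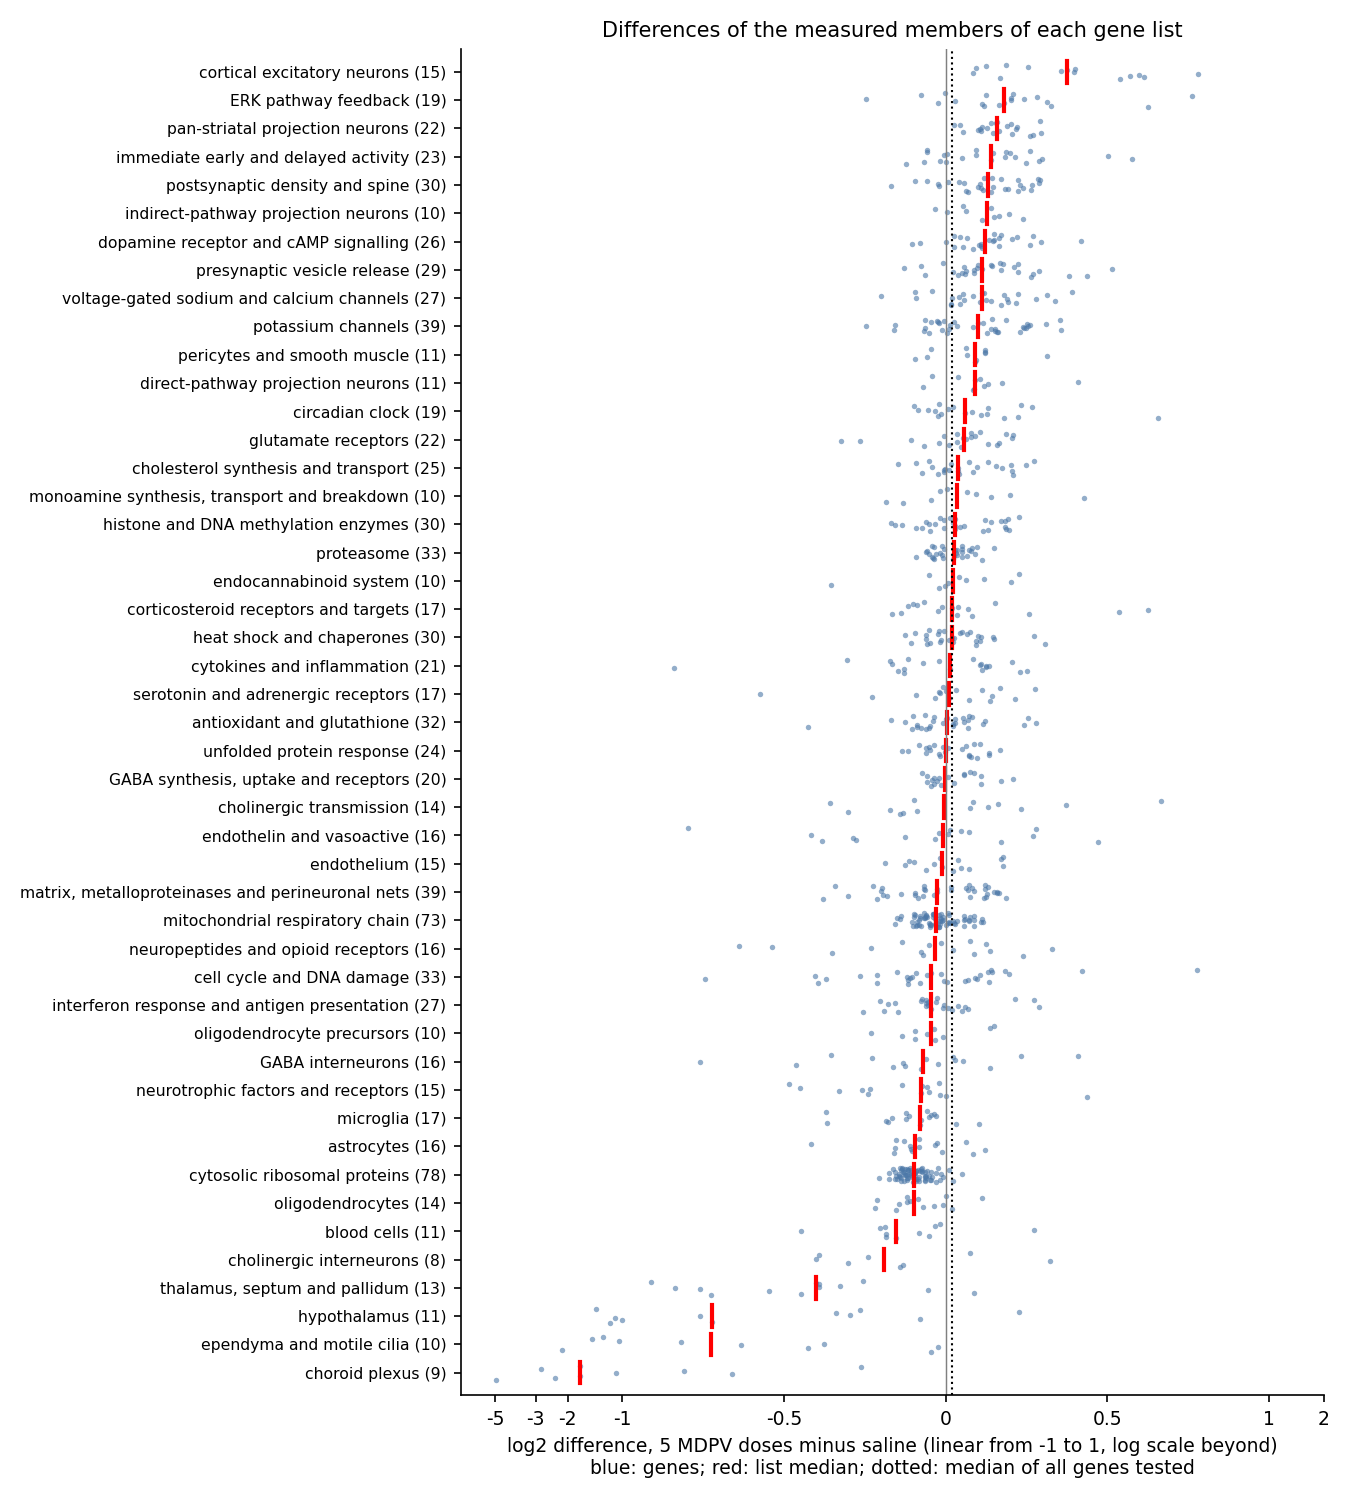
Log2 difference, 5 doses of MDPV minus saline, of each measured member of 47 gene lists (blue points; number measured in brackets), with the list median in red and the median of all genes tested (0.020) dotted; the x axis is linear from -1 to 1 and logarithmic beyond. Choroid plexus (-1.70), ependyma (-0.73), hypothalamus (-0.72) and thalamus (-0.40) have the lowest medians and cortex (0.38) the highest, while ribosomal protein genes form a narrow cluster around -0.098.

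Repeated dosing was set directly against a single dose, with both groups taken 24 h after their last MDPV injection. Again 0 genes passed an adjusted p of 0.05 (limma with Benjamini-Hochberg adjustment), and 510 (2.46%) had an unadjusted p under 0.05. Of the genes named above, Gpr35 had the smallest p in this contrast, with a difference of -1.70 (SE 0.37), with values near background. As it was above background on 1 saline array and no repeated-dose array, Gpr35 met the filter on dim probes only through the single-dose group. The filter favours such a difference, so its place here carries no weight. Ddx31 differed from the single-dose group by 0.58 (SE 0.16), Cth by 0.61 (SE 0.23), Henmt1 by 0.51 (SE 0.19), Fpgt by 0.37 (SE 0.15) and Gfy by 0.91 (SE 0.40). Cacna1a differed by 0.41 (SE 0.13), Rpl19 by -0.25 (SE 0.095), Ism1 by -0.30 (SE 0.14) and Myt1 by -0.73 (SE 0.35). For other genes the single-dose group stood on the same side of saline as the repeated-dose group: its difference from the shared saline arrays was -0.71 for Ptger3, -0.80 for Exo1, 0.41 for Piwil2 and -0.51 for Mmp2. As both contrasts use the same saline arrays, that likeness carries no weight of its own. Among striatal genes, Pdyn was -0.40 (SE 0.20) and Junb 0.45 (SE 0.25) relative to a single dose, and neither passed the test.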

How the data were processed

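Probe signals are intensity values that the authors deposited as Agilent Feature Extraction 10.7 output, background-subtracted and detrended within each array per the file headers. The authors' deposited value table holds log2 values in the rank order of the scanner signals. In it all arrays share 1 highest value and nearly the same lowest value (2.6814 to 2.6816). Its steps beyond that are not given in the sources used here. From the scanner signals, log2 values minus each array's 75th percentile were taken, marked outlier spots dropped (312 probe values stayed missing) and spots of a probe averaged. Of 45598 probes, 26259 were kept that were well above background on at least 0.5 of the arrays of a group. A gene took its kept probe of highest mean level, which gave 20697 genes, 13511 with a symbol. Symbols came from the probes' accessions where these gave one, and otherwise from the gene names in the array annotation. Probe annotation in the files is on rn4. Arrays sharing a title letter were averaged, and limma 3.58.1 in R 4.3.3 (lmFit, eBayes, all 3 groups) tested each gene with Benjamini-Hochberg adjustment at 0.05; the procedure was tested on simulated data. With arrays of this kind, their number limits the precision.

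Genes named are the 15 of smallest p and the 5 of largest difference in each direction, up to 2 of smallest p in each direction of each of 47 gene lists, and 24 set genes; others are said to be chosen after their values were seen. Members and lists were chosen with earlier results of these data known. Lists are described by counts and medians, with no test. Alternatives changed the normalization, background correction (normexp, offset 50), filter, probe rule, blocks, weights and arrays left out.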

Additional observations from a re-analysis of the deposited data

Results flagged for a closer look

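With 6 averaged values a group, 11 group values among 91 named genes, highest or lowest of their group, lay apart from the rest (Dixon's test at 95%), where chance sets apart a value in about 1 of 20 groups and both groups of each of the 91 genes were examined, so that the count is near the one chance gives. Clock was highest on repeated-dose array 1 at -4.93, with the nearest at -5.92. Drd1 was lowest on repeated-dose array 4 at 2.21, with the nearest at 2.84. Drd2 was lowest on repeated-dose array 4 at 2.44, with the nearest at 3.14. Fosb was lowest on saline array 4 at -5.25, with the nearest at -4.33. Gal was highest on saline array 4 at 1.38, with the nearest at -1.90. H2bc12 was highest on saline array 3 at -1.11, with the nearest at -1.29. Nr4a1 was lowest on saline array 4 at -0.69, with the nearest at 0.28. Oaz3 was highest on repeated-dose array 7 at -2.0, with the nearest at -5.45. Oprm1 was lowest on saline array 7 at -8.13, with the nearest at -6.31. Timp1 was highest on repeated-dose array 4 at -1.83, with the nearest at -3.10. Zswim9 was highest on repeated-dose array 3 at -4.41, with the nearest at -4.59. Saline array 4 and repeated-dose array 4 make up 6 of the 11.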

How the results depend on the processing

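No gene passed an adjusted p of 0.05 (limma) under any of 31 alternatives, and unadjusted counts ran from 340 to 2392 against 592. The number of genes at an unadjusted p under 0.05 was 1578 with normexp correction, 1050 (of 35833 genes, against 592 of 20697) with no filter on dim probes, 1074 with a random term for the title letter, 968, 1923 and 1040 on slides 1, 2 and 3 alone, 2392 with array weights, and 340 with saline array 4 left out and the slide as a block, an alternative chosen after seeing the data. Leaving out each averaged sample in turn gave 355 to 1855; the ends were without repeated-dose array 3 and without saline array 7. The cause of these moves was not tested. Shared-letter arrays correlated at a median of -0.36 (6 pairs) against -0.15 for 56 other pairs of arrays of 1 group on different slides, so the letters were not borne out as repeats by the values; 24 separate arrays gave 482 genes. No paired analysis was possible because the labels give the groups no shared replicate numbers. Of 91 named genes, 62 changed sign under at least 1 alternative, 45 of them on slide 3 alone, which holds 2 arrays a group. On slide 3 the differences that turned were Bdnf -1.93, Cacna1a -0.36, Calml4 1.84, Cd7 -0.15, Cfap126 0.35, Cfap157 0.056, Cnmd 1.94, Cth -0.11, Ddx31 -0.18, Dlg3 -0.24, Dpp4 -0.10, Dr1 -0.072, Dynlrb2 0.84, Folr1 2.75, Fos 0.63, Fosb -0.33, Gfy -0.27, Gramd2a -0.19, H2bc12 0.077, Igf2 1.06, Mmp2 0.58, Ndufb8 0.22, Oprm1 0.60, P4ha3 -0.16, Pdyn 0.16, Per1 0.61, Per2 -0.026, Piwil2 -0.25, Ppp1r1b -0.10, Prkcd 0.17, Rpl19 0.26, Rpl41 0.030, S100b 0.18, Sostdc1 4.52, Spata24 0.12, Spred1 -0.045, Stx7 -0.092, Syt1 -0.38, Tmem212 2.21, Ttr 5.16, Txnrd1 -0.042, Wipf2 -0.075, Wnt16 -0.50, Zic1 0.38, Zswim9 -0.019. On slide 1 they were Arc -0.032, Cartpt 0.0041, Drd1 -0.15, Drd2 -0.093, Nr4a1 -0.32, Tac1 -0.10, and on slide 2 Cartpt 0.049, Drd1 -0.11, Egr1 -0.14, Th 0.054, Tmem119 0.022. Under normexp they were Cacna1a -0.013, Cd7 -0.24, Clock -0.026, Ddx31 -0.053, Dusp1 -0.13, Edn1 -0.0070, Egr3 -0.018, Fosb -0.025, Fpgt -0.19, Henmt1 -0.088, P2rx4 -0.033, P4ha3 -0.047, Zswim9 -0.034. With 24 separate arrays, or with the slide as a block, or with the title series as a block, the changed value was Drd1 -0.0085. With a random term for the letter, the changed values were Drd1 -0.072, Tac1 -0.032. With array weights, the changed values were Drd1 -0.11, Drd2 -0.011, Egr1 -0.057, Tac1 -0.069, Th 0.10. With 16 arrays without saline array 4, slide as a block, the changed values were Drd1 -0.12, Drd2 -0.084, Egr1 -0.059, Tac1 -0.12. With the arrays with a title of their own alone, the changed values were Pdyn 0.084, Per1 0.12. With quantile normalization, the changed value was Rpl41 0.048. With the authors' value table, the changed value was Rpl41 0.052. Leaving out each averaged sample in turn gave ranges that crossed 0 for Cartpt -0.71 to 0.35, Drd1 -0.085 to 0.21, Drd2 -0.10 to 0.24, Egr1 -0.10 to 0.27, Fos -0.32 to 0.029, Nr4a1 -0.0023 to 0.31, Pdyn -0.20 to 0.042, Per1 -0.10 to 0.051, Ppp1r1b -0.0076 to 0.41, Tac1 -0.11 to 0.19, Th -0.24 to 0.0093, Timp1 -0.14 to 0.26; saline array 4 alone turned Drd1 -0.085, Drd2 -0.10, Egr1 -0.10, Nr4a1 -0.0023, Ppp1r1b -0.0076, Tac1 -0.11. Of 47 list medians, 26 moved by more than the saline spread under at least 1 alternative. Precision is set by the 6 values a group and, for dim probes, by signal close to background.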
